A study of Mus musculus with 5 samples.

Results

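In a mouse muscle injury series, 8 TaqMan assays read miRNAs of the imprinted Dlk1-Dio3 region: miR-337-3p, miR-337-5p, miR-665, miR-431, miR-433, miR-127, miR-136 and miR-370. They were found by assay name, and all 8 were among the 217 miRNA assays. The series followed the tibialis anterior, a leg muscle, of C57BL/6J male mice aged 4 to 6 months through injury and repair. Muscles taken 1, 3, 4, 7 and 21 days after an intramuscular injection of cardiotoxin (2.5 µM, 100 µl), a venom peptide that lyses myofibres, were set against uninjected baseline muscles of the same strain. The labels give 4 mice per time point. Both hind limbs were injected and RNA came from part of the muscle, so each value averages myofibres with every other cell of the tissue. No group carried a genetic change. Days 2 and 5 of the labels were not analysed here.

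Each level is a Ct, the number of PCR cycles needed to reach a set fluorescence. More RNA gives a lower Ct, and a step of 1 cycle is taken as a doubling. There were 4 Ct values per assay and group, and all days share the same 4 baseline values. The mouse behind each value is not named in the files. The p-values therefore measure the spread between these values, which may be technical. Ct levels of different assays cannot be set against each other, because each assay has its own efficiency.

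The Dlk1-Dio3 region holds a long series of noncoding RNAs and miRNAs made from the maternal chromosome, while Dlk1, Rtl1 and Dio3 are made from the paternal one. Several of the miRNAs arise from the strand opposite Rtl1, a retrotransposon-derived gene, and, being fully complementary to its mRNA, guide its cleavage. In sheep the same region carries the callipyge trait, an enlargement of muscle, and in mice miRNAs of the region have been described as abundant in quiescent satellite cells, the stem cells of muscle. In mouse muscle progenitors miR-431 acts on Pax7, the transcription factor that marks satellite cells.

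The 8 assays matched 7 hairpins of RefSeq (build GRCm38.p6), all on the plus strand of chromosome 12. Of these, 6 lay within the span of Rtl1, which is on the other strand, in the order Mir337 (chr12:109585789-109585885), Mir665 (chr12:109586314-109586407), Mir431 (chr12:109590447-109590537), Mir433 (chr12:109591715-109591838), Mir127 (chr12:109592846-109592915) and Mir136 (chr12:109595327-109595388). From the first to the last they covered 9.6 kb, with Mir337 and Mir665 428 bases apart. Mir370 (chr12:109618258-109618336) lay 22.9 kb beyond Mir136, outside Rtl1 and inside Rian, a noncoding RNA of the region. The name of the group thus holds for 7 of the 8 assays by position, and miR-370 is described here as a neighbour.

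Only the miR-337 assays name the arm they read, and for the other 6 both arms are shown because the name does not say which was amplified. Sequences are RefSeq's, 5′ to 3′, with the seed (bases 2 to 8, which lead the pairing with targets) in capitals.
miR-337-5p: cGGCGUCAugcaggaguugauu
miR-337-3p: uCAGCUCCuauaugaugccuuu
miR-665-5p: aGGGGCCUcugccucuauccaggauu
miR-665-3p: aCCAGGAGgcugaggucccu
miR-431-5p: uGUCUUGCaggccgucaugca
miR-431-3p: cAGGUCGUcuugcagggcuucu
miR-433-5p: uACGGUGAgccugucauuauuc
miR-433-3p: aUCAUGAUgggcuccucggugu
miR-127-5p: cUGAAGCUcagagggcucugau
miR-127-3p: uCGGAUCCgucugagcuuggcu
miR-136-5p: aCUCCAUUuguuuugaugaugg
miR-136-3p: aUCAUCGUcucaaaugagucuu
miR-370-5p: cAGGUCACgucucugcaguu
miR-370-3p: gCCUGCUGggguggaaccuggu
No seed was shared among these 14 arms. Among the 1738 mature miRNAs of the table, 13 of the 14 seeds occurred once, and that of miR-370-5p was also the seed of miR-1193-3p. The 8 assays therefore do not form a seed family, and what they share is their position.

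Unless stated otherwise, a change is a log2 difference in level relative to the median miRNA, that is, after removing from each well the median Ct change of the 205 miRNAs detected in every well. Values relative to U6, the control RNA the files name, stand beside them where they matter. Against the median miRNA, U6 moved every change by -1.91 on day 1, -1.12 on day 3, -0.67 on day 4, -0.09 on day 7 and -0.12 on day 21 (log2). Y1, another control RNA, moved them the other way, by 2.73, 1.32, 0.30, 1.10 and 1.07 on those days, and snoRNA135 by -1.14 to -1.78. The words risen and fallen are kept for changes with an adjusted p under 0.05 in the limma fit by both of these scalings, the median miRNA and U6. Counts by any other control RNA or in raw Ct are by that scaling alone. They stand without the share over all miRNAs, which was not counted. Another control RNA shifts all miRNAs of a well alike. A miRNA was tested where its Ct was under 35 in at least 3 of 4 wells of both groups. The 5 measured muscle miRNAs had mean baseline Ct values of 9.35 (miR-133a), 12.9 (miR-1), 14.96 (miR-133b), 26.45 (miR-486) and 27.455 (miR-499).

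On day 1, 5 of the 7 tested assays had fallen against baseline and none had risen. The 5 were miR-337-3p, miR-337-5p, miR-127, miR-136 and miR-370, with changes between -0.72 and -2.38 (log2). Relative to Y1, which moved every miRNA by 2.73 on that day, 6 were called higher and none lower. The background was high, as 38.9% of the 211 miRNAs tested on day 1 had fallen and 9% had risen. In these bulk samples, fewer cells of a type and less RNA per cell cannot be told apart. On days 3 and 4 the changes from baseline were mixed in sign.

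On day 3, 3 of the 8 had risen (miR-433, miR-665 and miR-370) and 3 had fallen (miR-136 and both miR-337 arms), against 19.3% risen and 41% fallen among 212 miRNAs. Relative to Y1 the miR-337 arms were at 0.0725 for 3p and 0.58 for 5p on that day, neither called. On day 4, 4 had risen, with miR-431 added to those 3, and miR-136 alone had fallen, against a background of 25.4% and 41.3% of 213. On day 7, 7 of the 8 had risen and none had fallen, against 31.5% and 35.7% of 213. The exception was miR-337-3p, at 0.99 ± 0.17 (log2, SE) by the first scaling and 0.90 ± 0.46 with U6 (adjusted p = 0.0855). Relative to snoRNA135, 5 of the 8 were called higher on day 7. Those not called were miR-337-3p at -0.18, miR-337-5p at 0.03 and miR-136 at 0.16. On day 21 all 8 had risen over baseline, against a background of 22.1% risen and 19.2% fallen of 213. Relative to snoRNA135, 6 of the 8 were called higher on day 21, with miR-337-3p at 0.16 (adjusted p = 0.525) and miR-370 at 0.60 (adjusted p = 0.424).

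**Figure D1:**
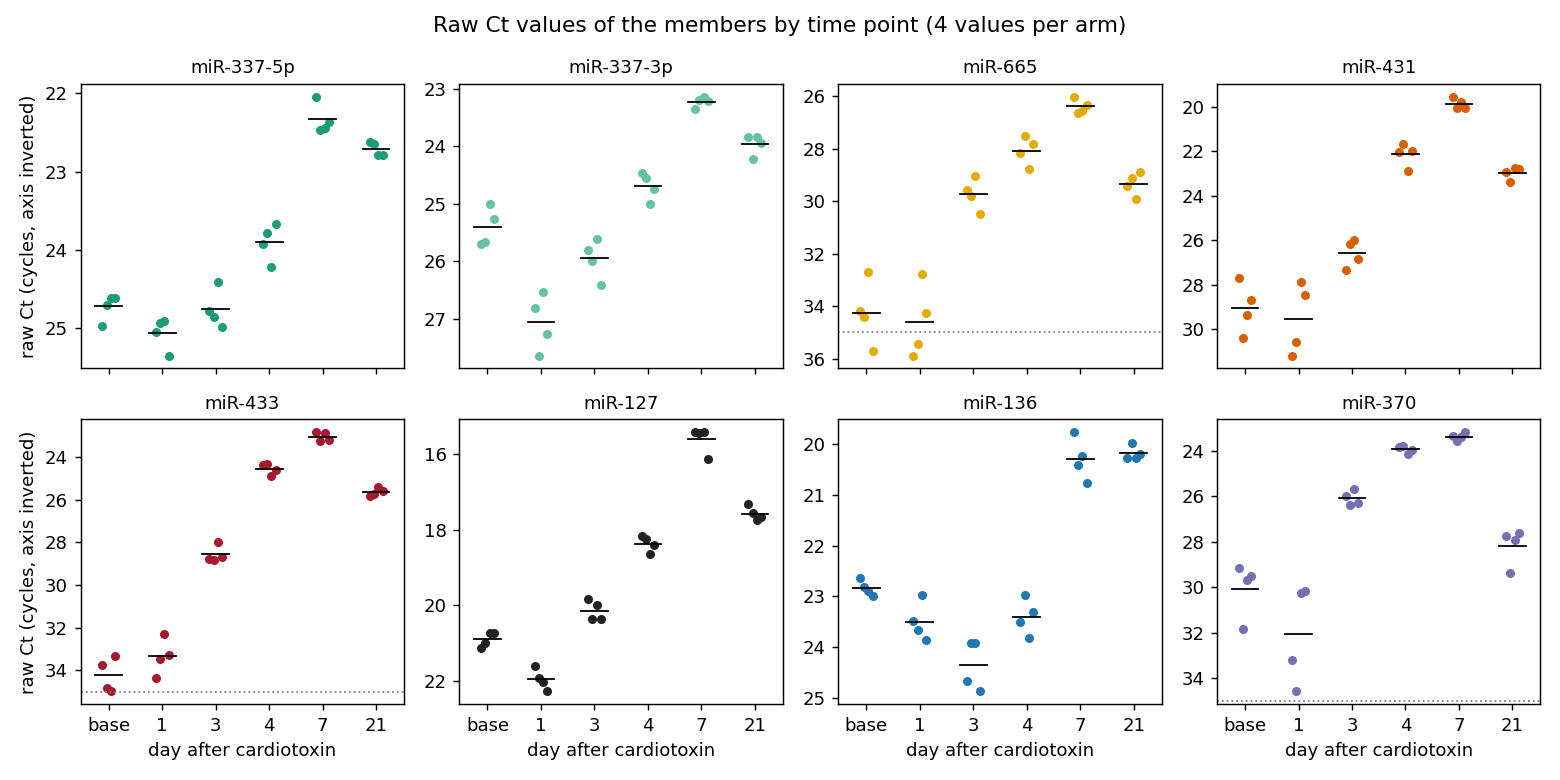
Raw Ct of the 8 assays in uninjected baseline muscle and 1 to 21 days after cardiotoxin, with 4 values per group as points, the mean as a line and an inverted axis, so that more RNA is higher. The dotted line is the detection limit of Ct 35. miR-433 and miR-665 start near that limit, and miR-136 alone had its highest mean Ct on day 3.

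miR-431, which acts on Pax7, had the second largest change of the 8 on day 7. Its Ct values were 27.70, 30.39, 29.36 and 28.69 at baseline, 31.18, 30.59, 27.88 and 28.47 on day 1, and 27.34, 26.16, 25.99 and 26.82 on day 3. They were 22.01, 21.65, 22.86 and 22.00 on day 4, 19.53, 20.05, 19.79 and 20.04 on day 7, and 22.92, 23.37, 22.74 and 22.79 on day 21. The baseline and day 1 values overlapped and were spread over more than 2 cycles. Every raw value of days 3, 4, 7 and 21 lay below every baseline value, but day 3 overlapped baseline after either scaling. On day 7 the change was 7.99 ± 0.55 (log2, SE), a 254-fold difference from baseline, with an adjusted p of 1.68e-11. On day 3 the call depended on the scaling, at 1.75 ± 0.55 by the median miRNA (adjusted p = 0.00653) and 0.63 ± 0.47 by U6 (adjusted p = 0.228). The largest single step lay between days 4 and 3, where miR-431 was 18.5-fold higher on day 4 than on day 3 (adjusted p = 2.07e-06). By day 21 it was lower than on day 7 by a log2 change of -2.06 ± 0.55 (adjusted p = 0.00236), which still left it 61.0-fold above baseline.

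miR-433, whose hairpin follows that of miR-431, had the largest rise. Its Ct values were 33.76, 34.83, 34.98 and 33.31 at baseline, 34.34, 33.45, 32.28 and 33.30 on day 1, and 28.80, 28.81, 27.96 and 28.69 on day 3. They were 24.35, 24.33, 24.90 and 24.60 on day 4, 22.84, 23.24, 22.87 and 23.20 on day 7, and 25.81, 25.73, 25.39 and 25.59 on day 21. All baseline values lay less than 2 cycles under the detection limit, and each value from day 3 on was below all of them. The day 7 change was 9.99 ± 0.31 (log2, SE), 1017-fold, with an adjusted p of 7.52e-17, and it ranked above every other miRNA tested on that day. Because the baseline signal was so close to the limit, the size of this fold rests on baseline wells with little RNA. miR-433 was higher by day 3 already, at 30.9-fold over baseline (adjusted p = 2.74e-12), or 14.2-fold by U6. On day 1 the scalings disagreed, at 0.49 ± 0.31 by the median miRNA (adjusted p = 0.148) and -1.42 ± 0.42 by U6 (adjusted p = 0.00334). Between days 21 and 7 it was lower on day 21 by a log2 change of -1.55 ± 0.31 (adjusted p = 0.00017), and it remained 348-fold above baseline.

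miR-665, the nearest neighbour of miR-337, was at the edge of detection before injury. Its Ct values were 34.19, 34.41, 32.71 and 35.69 at baseline, 35.88, 35.44, 32.79 and 34.27 on day 1, and 29.59, 29.81, 29.05 and 30.50 on day 3. They were 28.16, 27.53, 28.76 and 27.82 on day 4, 26.01, 26.63, 26.57 and 26.34 on day 7, and 29.41, 29.11, 29.92 and 28.88 on day 21. With 2 of 4 wells under Ct 35 on day 1 it did not count as detected there, so day 1 was not tested. With day 1 wells set to 35 where they exceeded it, miR-665 was at least 18.4-fold higher on day 3 than on day 1, or at least 31.8-fold relative to U6. Against baseline it was 14.0-fold higher on day 3 (adjusted p = 9.89e-07), or 6.42-fold by U6, and 102-fold higher on day 7, a log2 change of 6.67 ± 0.53 (adjusted p = 1.56e-10). On day 21 it was below day 7 by a log2 change of -1.90 ± 0.53 (adjusted p = 0.00315) and 27.3-fold above baseline. Since a baseline value of 35.69 exceeded the limit, the sizes of the folds over baseline rest on wells with little RNA. The steps between days 4 and 3 (1.43 ± 0.53, adjusted p = 0.0269) and days 7 and 4 (1.43 ± 0.53, adjusted p = 0.0287) were close to the threshold. Each was lost on leaving out single values: value 2 or 4 of day 4 or value 4 of day 3 for the first step (adjusted p 0.0519 to 0.0842), and value 1 or 3 of day 7 or of day 4 for the other (0.0503 to 0.0842).

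miR-370, the neighbour inside Rian, rose early and came down most. Its Ct values were 29.16, 31.84, 29.70 and 29.52 at baseline, 33.19, 34.58, 30.25 and 30.18 on day 1, and 26.00, 26.38, 25.68 and 26.27 on day 3. They were 23.84, 23.80, 24.13 and 23.94 on day 4, 23.33, 23.57, 23.39 and 23.18 on day 7, and 27.76, 29.37, 27.92 and 27.62 on day 21. Days 3, 4 and 7 lay clear of baseline in every value, whereas day 21 overlapped it in raw Ct. Over day 1, miR-370 was 50.0-fold higher on day 3 (log2 change 5.64 ± 0.68, adjusted p = 2.49e-07). That step was 86.2-fold by U6, and leaving out single values gave log2 changes between 4.82 and 6.29. With a Ct limit of 32 the step was not tested, as day 1 values of 33.19 and 34.58 exceeded that limit. On day 7 miR-370 was 45.1-fold over baseline, with a log2 change of 5.50 ± 0.68 (adjusted p = 1.78e-07). Day 7 differed from day 4 by 0.31 ± 0.68 (log2, adjusted p = 0.731). On day 21 it was 13.5-fold below day 7 (log2 change -3.76 ± 0.68, adjusted p = 6.01e-05). Its remaining rise over baseline was 1.74 ± 0.68 (log2, adjusted p = 0.0278), and the call was lost on leaving out value 1, 3 or 4 of day 21 or value 2 of baseline (adjusted p 0.0549 to 0.123). The day 1 fall of -2.38 ± 0.68 (adjusted p = 0.00324, and -4.29 by U6) was lost when only day 1 and baseline entered the fit (adjusted p = 0.0612).

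On day 1, values 1 and 2 both lay above values 3 and 4 in Ct for miR-431, miR-433, miR-665 and miR-370, as seen after the values were known. In miR-127 the same 2 values lay below the others, and in both miR-337 arms the pairs overlapped. Leaving out 1 value of either group at a time kept the day 1 change of miR-370 between -3.03 and -1.55, and that of miR-431 between -1.34 and -0.38. What sets these wells apart was not tested.

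miR-127, a miRNA of the strand opposite Rtl1 that acts on BCL6 in human cancer cells, fell first and then rose. Its Ct values were 21.13, 20.98, 20.73 and 20.73 at baseline, 21.59, 21.92, 22.02 and 22.26 on day 1, and 19.83, 20.36, 19.99 and 20.35 on day 3. They were 18.17, 18.25, 18.64 and 18.41 on day 4, 15.44, 15.47, 15.44 and 16.14 on day 7, and 17.33, 17.57, 17.76 and 17.67 on day 21. Every step was visible in the raw values, since no group overlapped its neighbour in time. It fell on day 1 by 1.44 ± 0.18 (log2, SE, adjusted p = 2.49e-07), with -3.35 by U6, although relative to Y1 it was at 1.30 there. On day 3 it was at 0.05 ± 0.18 by the median miRNA and -1.07 ± 0.52 by U6, neither past the threshold. On day 4 it was called at 1.58 ± 0.18 by the median miRNA but not by U6, at 0.91 ± 0.52 (adjusted p = 0.113). On day 7 miR-127 was 16.9-fold above baseline (4.08 ± 0.18, adjusted p = 1.29e-14) and on day 21 it was 8.95-fold above (adjusted p = 1.71e-12). The difference between days 21 and 7, -0.92 ± 0.18 (adjusted p = 0.000139), did not pass relative to U6 (adjusted p = 0.153).

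miR-136, the last hairpin of the Rtl1 span, was below baseline until day 4 by both scalings. In contrast, miR-433, miR-665 and miR-370 were above baseline from day 3. Relative to Y1, however, miR-136 was at 1.69 (log2) on day 1, and its raw Ct overlapped baseline on days 1 and 4. Its Ct values were 22.64, 22.81, 22.89 and 22.99 at baseline, 23.49, 23.66, 22.97 and 23.85 on day 1, and 24.65, 23.92, 23.91 and 24.86 on day 3. They were 23.50, 22.97, 23.82 and 23.30 on day 4, 19.78, 20.42, 20.24 and 20.78 on day 7, and 20.29, 19.98, 20.29 and 20.21 on day 21. Day 3 was its lowest group, and all day 3 values lay above all baseline values in Ct. It was 4.63-fold below baseline on day 3 (log2 change -2.21 ± 0.24, adjusted p = 1.53e-08, and -3.33 by U6) and still below on day 4 (-1.51 ± 0.24, adjusted p = 4.19e-06, and -2.18 by U6). Over day 4 it was 7.18-fold higher on day 7 (adjusted p = 4.13e-09). It went on rising, being 2.23-fold higher on day 21 than on day 7 (adjusted p = 0.000192), which miR-136 alone of the 8 did under both scalings. That last step was not called relative to snoRNA202 (0.49 ± 0.26, adjusted p = 0.098), relative to U87 (0.78 ± 0.35, adjusted p = 0.0639) or in raw Ct (0.11 ± 0.24, adjusted p = 0.678).

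Both arms of the miR-337 hairpin had the smallest changes of the 8 on day 7. The miR-337-3p Ct values were 25.71, 25.66, 25.01 and 25.27 at baseline, 26.81, 27.64, 26.53 and 27.27 on day 1, and 25.80, 25.99, 25.61 and 26.41 on day 3. They were 24.46, 24.55, 25.01 and 24.75 on day 4, 23.35, 23.20, 23.14 and 23.22 on day 7, and 23.84, 24.23, 23.85 and 23.94 on day 21. On day 1 miR-337-3p was 4.10-fold below baseline (log2 change -2.03 ± 0.17, adjusted p = 6.58e-10, and -3.94 by U6), and relative to Y1 it was above it at 0.70 (log2). On day 21 it was 2.46-fold above baseline (1.30 ± 0.17, adjusted p = 1.03e-06).

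The miR-337-5p Ct values were 24.97, 24.70, 24.61 and 24.61 at baseline, 25.05, 24.94, 24.91 and 25.35 on day 1, and 24.78, 24.86, 24.41 and 24.98 on day 3. They were 23.92, 23.78, 24.22 and 23.67 on day 4, 22.04, 22.47, 22.44 and 22.36 on day 7, and 22.62, 22.65, 22.79 and 22.79 on day 21. Up to day 3 these values stayed within about 1 cycle, and those of days 4, 7 and 21 lay below all of baseline. miR-337-5p was 2.30-fold above baseline on day 7 (adjusted p = 1.30e-09) and 3.63-fold above on day 21 (adjusted p = 2.57e-12). Relative to snoRNA135 its day 7 change was 0.03 (log2, limma, adjusted p = 0.869). Neither arm was called different from baseline on day 4, with -0.22 ± 0.17 for 3p and -0.12 ± 0.11 for 5p, and both values were above 0 relative to Y1, at 0.0725 and 0.18.

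Both arms come from a single precursor. Their Ct difference within a well needs no scaling, because any scaling of a well cancels in the difference of 2 assays. The Ct of miR-337-5p minus that of miR-337-3p was -1.76, -2.70, -1.62 and -1.92 on day 1, against -0.74, -0.96, -0.40 and -0.66 at baseline. All day 1 values were below all baseline values, and the ratio of 5p to 3p was 2.48-fold that of baseline (exact permutation test, two-sided, p = 0.0286, adjusted over 5 days 0.0476). The p of 0.0286 is the smallest that 4 values against 4 can give. The ratio was also higher on day 3, at 1.42-fold, and on day 21, at 1.48-fold, with the same p (exact permutation test, adjusted 0.0476). On day 4 it was 1.08-fold (p = 0.571) and on day 7 1.16-fold (p = 0.371) that of baseline by the same exact permutation test. This test treats the nth value of both assays as the same well.

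**Figure D2:**
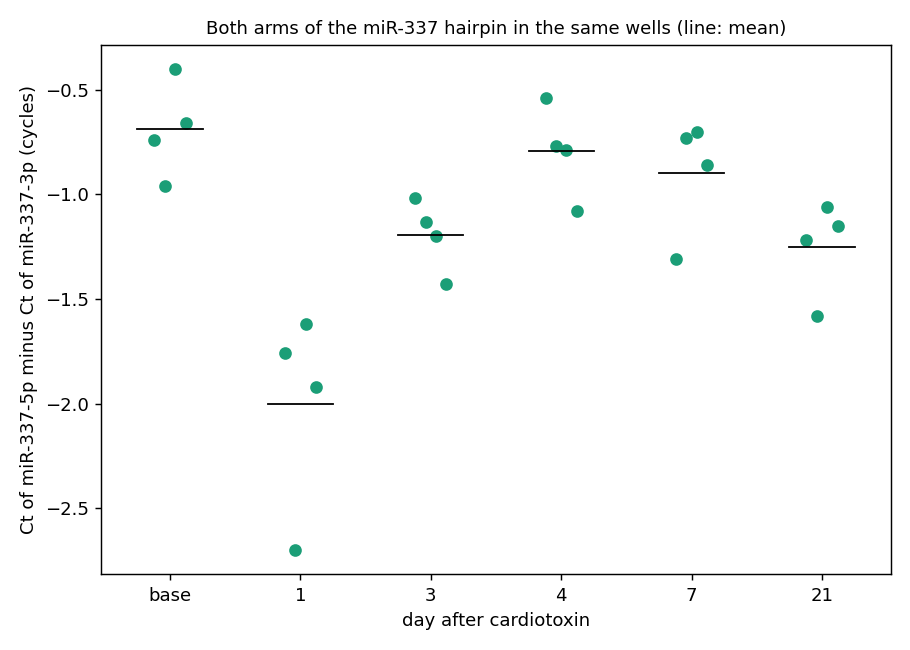
Ct of miR-337-5p minus Ct of miR-337-3p in each well, in cycles, for baseline and days 1 to 21 after cardiotoxin, with 4 wells per group as points and their mean as a line. Lower values mean relatively more 5p: the mean was -2.00 on day 1, -1.20 on day 3, -0.80 on day 4, -0.90 on day 7 and -1.25 on day 21, against -0.69 at baseline.

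The day of the highest level split the assays. By either scaling, miR-431, miR-433, miR-665, miR-127 and miR-370 had their highest mean on day 7, and miR-136 and both miR-337 arms on day 21. For the miR-337 arms days 21 and 7 were not set apart by both scalings: the difference was 0.31 ± 0.17 for 3p (adjusted p = 0.124), and 0.66 ± 0.11 for 5p (adjusted p = 2.11e-05) but 0.63 ± 0.44 by U6 (adjusted p = 0.267). Day 7 was the higher of the 2 for 3p relative to snoRNA202 (-0.36, adjusted p = 0.0412), relative to U87 (-0.07) and in raw Ct (-0.74, adjusted p = 0.0045), and for 5p relative to snoRNA202 (-0.0075) and in raw Ct (-0.39, adjusted p = 0.028). Over successive days, 5 of 7 tested assays were higher on day 3 than on day 1 and none lower, where the shares of all 213 tested were 31% and 13.1%. With Y1 as the control, 3 were called higher and 3 lower in that step. On day 4, 6 of 8 were higher than on day 3 and none lower (background 21.3% and 1.85% of 216), or 2 higher relative to Y1. On day 7, 7 of 8 were higher than on day 4 and none lower (16.1% and 0.922% of 217). On day 21, 4 of 8 were lower than on day 7, namely miR-431, miR-433, miR-665 and miR-370, and miR-136 was higher (14.4% lower and 19.4% higher of 216).

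**Figure D3:**
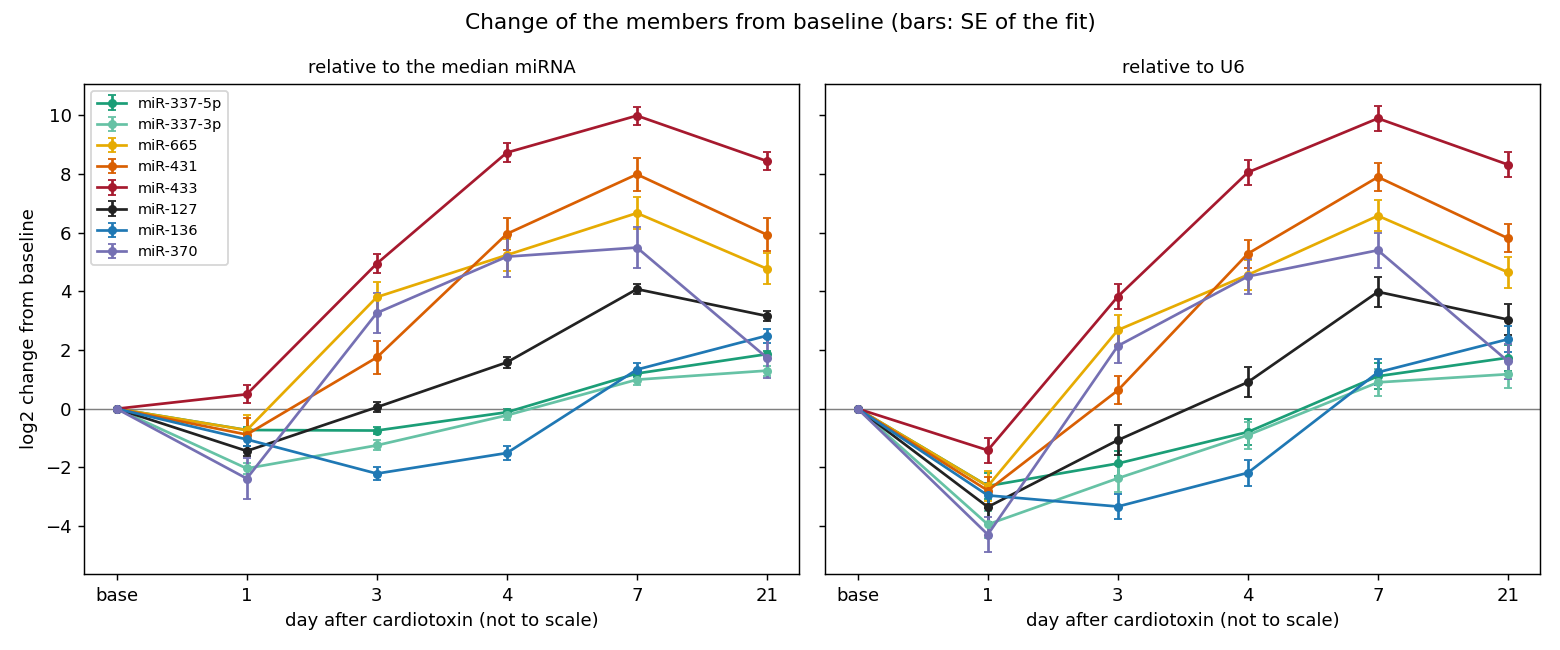
Log2 change of each assay from baseline, by day after cardiotoxin, relative to the median miRNA (left) and to U6 (right), with standard errors of the fit (4 values per group). On day 7 the changes ran between 0.99 for miR-337-3p and 9.99 for miR-433 in the left panel. Day 1 is lower on the right, relative to Y1 6 assays were called higher on that day, and miR-665 was not tested there.

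To compare the assays without any control RNA, each was also expressed relative to miR-127 of the same well. miR-433 gained on miR-127 on every day, by 1.93, 4.90, 7.15, 5.91 and 5.28 (log2) on days 1, 3, 4, 7 and 21. miR-431 gained by 1.70, 4.38, 3.91 and 2.77 and miR-665 by 3.75, 3.66, 2.59 and 1.61 on days 3, 4, 7 and 21, all past the threshold. miR-370 gained on days 3 and 4, by 3.21 and 3.60, and did not pass on day 7 (1.42 ± 0.76, adjusted p = 0.0805) or day 21 (-1.42 ± 0.76, adjusted p = 0.0791). In miR-433, miR-431 and miR-370 the mean gain was greatest on day 4, while the mean level was highest on day 7. Gains of different days were not tested against each other. The miR-370 level was not called different between days 7 and 4 (limma, adjusted p = 0.731).

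miR-136, by the same measure, was behind miR-127 on days 3, 4, 7 and 21, with log2 changes of -2.26, -3.09, -2.74 and -0.67. For miR-337-3p the changes were -0.60, -1.30, -1.81, -3.09 and -1.86 on days 1, 3, 4, 7 and 21, and for miR-337-5p they were -0.80, -1.70, -2.88 and -1.30 from day 3, after 0.72 on day 1. The background of these tests was lopsided, because miR-127 itself had moved: on day 7, 3.77% of 212 miRNAs were called higher relative to miR-127 and 90.6% lower, and on day 21 3.3% and 92.5%. On days 1, 3 and 4 the shares higher and lower were 69.5% and 10%, 34.6% and 42.2%, and 19.3% and 61.8%. Of the 7 other assays, 4 were higher and 3 lower on days 3 and 4, and 3 were higher and 3 lower on days 7 and 21. Of the 6 tested on day 1, 2 were higher and 1 lower. Mir337 and Mir665 are neighbours, and on day 7 they stood on opposite sides of miR-127, miR-665 at 2.59 ± 0.59 and the miR-337 arms at -3.09 ± 0.21 (3p) and -2.88 ± 0.17 (5p).

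**Figure D4:**
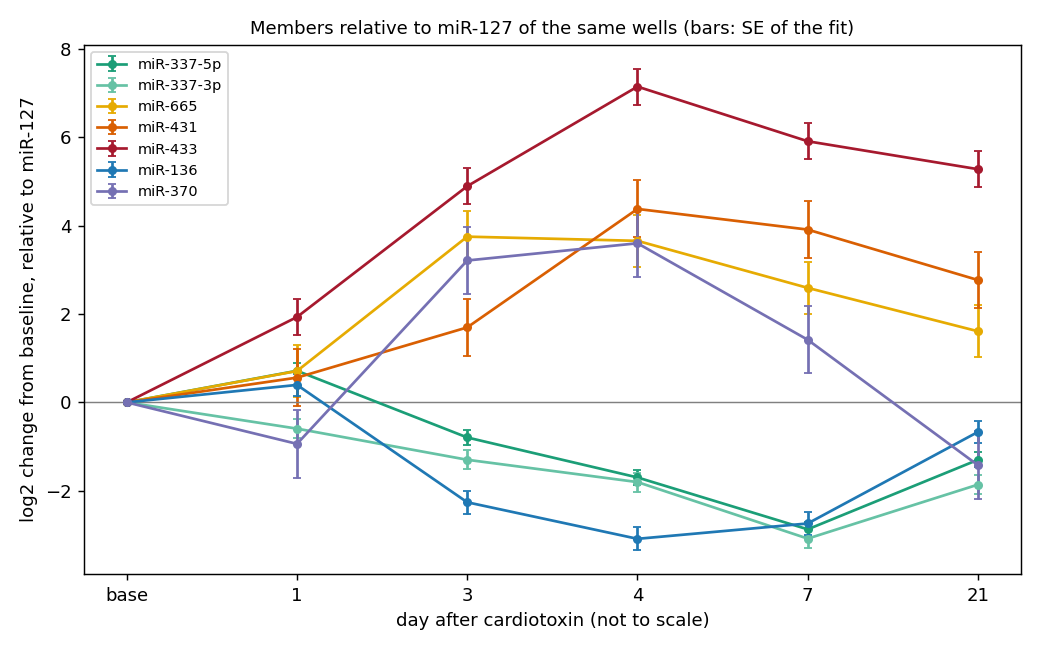
Log2 change from baseline of the 7 other assays relative to miR-127 of the same well, by day after cardiotoxin, with standard errors of the fit (4 values per group). miR-433 stood highest, at 7.15 on day 4, and miR-136 lowest on that day at -3.09. The day 1 point of miR-665 was not tested.

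Elsewhere in the region, 22 further Dlk1-Dio3 miRNAs were measured of 48 named in the list. Their median change was -1.07, 0.18, 1.82, 2.89 and 2.29 (log2) on days 1, 3, 4, 7 and 21, beside -1.04, 0.90, 3.38, 4.79 and 2.83 for the 8 assays and -0.04, -0.05, 0.06, 0.07 and -0.00 for all miRNAs tested. The last medians lie near 0 because the scaling removes the median change. By U6 the day 1 medians were -2.975 for the 22, -2.95 for the tested assays and -1.95 for all miRNAs. Those of day 3 by U6 were -0.94, -0.22 and -1.17 in the same order. By both scalings 17 of the 22 had fallen on day 1, 4 had risen and 3 fallen on day 3, 13 had risen and 1 fallen on day 4, 22 had risen on day 7 and 18 on day 21. On day 7 their 3 largest changes were 4.47 for miR-323-3p, 4.14 for miR-380-5p and 4.13 for miR-381, and their 3 smallest were 1.40 for miR-376c, 1.81 for miR-434-3p and 2.38 for miR-369-3p. The 8 assays ran between 0.99 and 9.99 on that day, a wider range at both ends. miR-434, which in mice also lies opposite Rtl1, was at 3.24 for the 5p arm, and was added after its values were seen. Its 3p arm had fallen on days 1, 3 and 4, at -1.73, -2.24 and -0.58 (log2). Whether the 8 assays differ from the 22 was not tested.

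**Figure D5:**
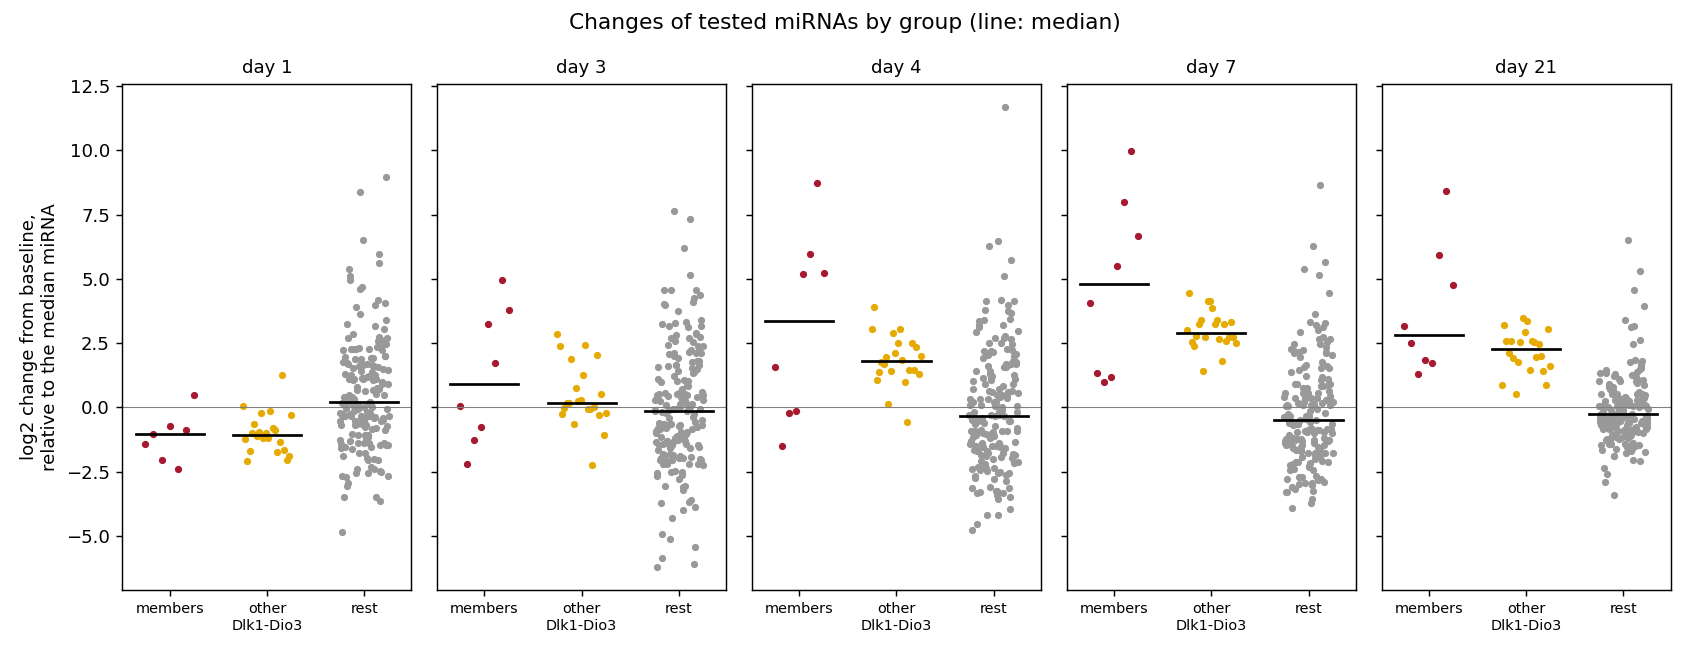
Log2 change from baseline relative to the median miRNA on each day after cardiotoxin, 1 point per tested miRNA, for the 8 assays (members), the 22 other Dlk1-Dio3 miRNAs and all remaining miRNAs, with the median as a line. On day 7 every point of the first 2 groups lies above 0, with medians of 4.79 and 2.89, though relative to snoRNA135 miR-337-3p was at -0.18.

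The median of the 7 assays measured throughout gave a profile over the 6 groups, which equals the miR-127 change on days 3, 4 and 7 and the miR-136 change on days 1 and 21. Of 181 miRNAs outside the region, the 5 with the highest Pearson correlation with that profile were miR-335-5p (0.95), miR-296-5p (0.93), miR-455 (0.88), miR-199a-3p (0.85) and miR-542-3p (0.81). Their day 7 changes were 3.23, 3.32, 1.21, 0.57 and 2.54 (log2). These correlations describe 6 group means that share wells and scaling.

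Other miRNAs of the same wells moved too. The 5 measured muscle-enriched miRNAs of 7 named had a median change of -3.06 on day 1, -5.98 on day 3 (4 tested), -3.95 on day 4, -1.77 on day 7 and -1.27 on day 21, and on day 7 4 of the 5 had fallen. The 4 fibroblast miRNAs had medians of -0.86, 1.51, 1.56, 1.43 and 0.43 on those days, and 3 of 4 had risen on day 7. The 9 myeloid and lymphoid miRNAs had medians of 1.60, 1.04, 0.84, 0.75 and -0.00, with 3 risen and 3 fallen on day 7. Their day 1 changes ran between 0.11 and 6.53. By U6 their medians were -0.31 on day 1 and -0.085 on day 3, and those of the fibroblast miRNAs -2.77 and 0.39. Of 2 miRNAs linked with satellite cells, miR-31 was at 2.29, 6.23, 6.50, 6.30 and 6.50, and miR-489, known from quiescent cells, was at -1.46, -5.42, -3.12, -1.45 and 0.02. The part of these cell types in the changes of the 8 assays was not tested.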

How the data were processed

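Per the labels' protocols, RNA was prepared with miRNeasy reagents, had to have an integrity number over 9, and was read by TaqMan RT-PCR with 40 cycles on an ABI 7900HT. The deposited values are the authors' raw Ct exports, which had not been normalized. The sources used here do not state the threshold setting, the RNA input or the genome build. The baseline column was identical in the 5 files and was used once, which gave 192 Ct values for the 8 assays, of which 3 were at or over Ct 35 and 0 at the last cycle. Depth has no counterpart here, and 4 values per group limit the precision.

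The nth value of an assay was taken as the same well in all assays of a group. The scalings had median residual SDs over miRNAs of 0.268 relative to the median miRNA, 0.308 for raw Ct and 0.644 relative to U6. All 6 groups entered a single limma fit (limma 3.58.1, R 4.3.3) per scaling, with two-sided p-values adjusted by Benjamini-Hochberg over all miRNAs tested in a comparison. Wells at 40 were left out. Errors of changes are standard errors, and fold and log2 values computed from the deposited Ct assume a doubling per cycle. The fit was also run on simulated data, with less spread than the real values and with high baseline Ct means lowered. That run cannot show how the fit does for assays near the detection limit, such as miR-433 and miR-665. The miR-337 arms were compared by an exact permutation test over wells.

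The members and lists were chosen with earlier results of these data known. All 8 assays are named, with the 3 largest and 3 smallest day 7 changes of the other Dlk1-Dio3 miRNAs and the 5 miRNAs nearest in profile. Alternatives covered the control RNA, raw Ct, the median without Dlk1-Dio3 miRNAs, Ct limits of 32 and 38, wells at 40 kept, limma-trend, only 2 groups in the fit, miR-136 in place of miR-127, and each value left out in turn.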

Additional observations from a re-analysis of the deposited data

Results flagged for a closer look

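Of 96 groups of 4 values (8 assays, 6 groups, raw and scaled), 3 held a value far from the other 3 by Dixon's test, where chance picks out about 1 in 20. At baseline miR-337-3p had scaled values of -0.08, -0.07, 0.28 and -0.13, with a gap of 0.863 of the range. On day 3 the raw Ct of miR-433 was 28.80, 28.81, 27.96 and 28.69 (gap 0.859). On day 7 the raw Ct of miR-127 was 15.44, 15.47, 15.44 and 16.14 (gap 0.957), and leaving out single values kept its day 7 change between 3.98 and 4.27 (log2).

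Of the 8 assays, 5 were below baseline on day 1 and above it on day 21, by both scalings. Over all miRNAs tested, 38.9% had fallen on day 1 and 22.1% had risen on day 21, and the share with both was not counted. Among the 22 other Dlk1-Dio3 miRNAs, 17 had fallen on day 1 and 18 had risen on day 21. The direct difference of day 21 minus day 1 was 3.33 ± 0.17 for miR-337-3p, 2.59 ± 0.11 for miR-337-5p, 4.60 ± 0.18 for miR-127, 3.54 ± 0.24 for miR-136 and 4.12 ± 0.68 for miR-370 (log2, SE), each past the limma threshold. The 5 were picked by their calls on those days, so passing this threshold was nearly fixed in advance. miR-433 and miR-431, left out by their day 1 calls, had larger differences of 7.95 ± 0.31 and 6.81 ± 0.55. Relative to Y1 none of the 5 was below baseline on day 1.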

How the results depend on the processing

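No paired analysis was possible because the files carry no replicate numbers that link mice across groups. All values below are log2 changes or counts of assays called by a single scaling, without the share over all miRNAs. They are not to be set against the calls by both scalings given above. Against baseline, the median miRNA alone gave 0, 4, 5, 8 and 8 higher on days 1, 3, 4, 7 and 21. Those lower were 5, 3, 1, 0 and 0. For the 4 successive steps from day 1 on it gave 5, 8, 7 and 2 higher and 1, 0, 0 and 5 lower. The cause of the differences was not tested. With 4 values per group and signals near Ct 35 (miR-433 and miR-665 at baseline), what can be seen is limited. Day 1 against baseline: relative to Y1, 6 assays were called higher and 0 lower, with miR-337-3p at 0.70, miR-337-5p at 2.01, miR-431 at 1.86, miR-127 at 1.30, miR-136 at 1.69 and miR-370 at 0.36. miR-433 was at -1.42 relative to U6 and -0.86 relative to snoRNA135, and in raw Ct 1 assay was called higher. Day 3 against baseline: miR-127 was at -1.07 relative to U6, -1.72 relative to snoRNA135 and -0.30 relative to U87, and miR-431 at -0.025 relative to snoRNA135. Relative to Y1, 1 assay was called lower, with miR-337-3p at 0.0725 and miR-337-5p at 0.58. Day 4 against baseline: miR-337-3p and miR-337-5p were at 0.12 and 0.22 relative to snoRNA202, 0.0725 and 0.18 relative to Y1, 0.14 and 0.24 with the median taken without Dlk1-Dio3 miRNAs, and 0.72 and 0.83 in raw Ct, and 3 assays were called lower relative to snoRNA135. Day 7 against baseline: 5 assays were called higher relative to snoRNA135, with miR-337-3p at -0.18, miR-337-5p at 0.03 and miR-136 at 0.16 not called.

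Day 3 against day 1: miR-337-5p was at 0.77 relative to U6, 0.14 relative to snoRNA202, 0.085 relative to U87, 0.42 with the median without Dlk1-Dio3 miRNAs and 0.31 in raw Ct. The assays called lower were 0 relative to U6, 2 relative to snoRNA135 and 3 relative to Y1, where 3 were called higher and miR-337-3p was at -0.63. Day 4 against day 3, relative to Y1: 2 assays were called higher, with miR-337-5p at -0.40 and miR-136 at -0.32. Day 21 against day 7: the assays called higher were 1 relative to U6 and to Y1, and 0 relative to snoRNA202, to U87 and in raw Ct. There miR-337-3p was at -0.36 relative to snoRNA202, -0.07 relative to U87 and -0.74 in raw Ct, and miR-337-5p at -0.0075 relative to snoRNA202 and -0.39 in raw Ct.

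A Ct limit of 32 left miR-433 and miR-665 untested against baseline, and gave 2 called higher on day 3, 3 on day 4 and 3 for day 3 against day 1. It also left miR-370 untested on day 1 (Ct 33.19, 34.58, 30.25 and 30.18). The day 1 fall of miR-370 and its step between days 3 and 1 thus had no call at that limit. Relative to miR-127 it gave 1, 2, 2, 1 and 1 called higher on days 1, 3, 4, 7 and 21. With miR-136 in place of miR-127, 1, 7, 7 and 5 were called higher on days 1, 3, 4 and 7 and 0 lower on days 3, 4 and 7. With only 2 groups in the fit, 0 were called lower relative to miR-127 on day 1. Leaving out single values gave, against baseline, 0 to 1 called higher and 5 to 6 lower on day 1 and 7 to 8 higher on day 21, and for successive days 5 to 6 higher (day 3 against day 1), 6 to 8 (day 4 against day 3) and 6 to 7 (day 7 against day 4). Relative to miR-127 it gave 2 to 3 higher and 0 to 2 lower on day 1, 3 to 4 higher on days 3 and 7, and 2 to 3 higher and 2 to 4 lower on day 21. Of single changes it turned the sign of miR-127 on day 3 (without day 3 value 1, range -0.047 to 0.11) and of miR-337-5p for day 3 against day 1 (without day 3 value 4 or day 1 value 1 or 2, range -0.089 to 0.038), neither called. A Ct limit of 38, wells at 40 kept and limma-trend moved no count by over 1.5 times.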
